A study of Mus musculus with 28 samples.

Results

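Cholesterol synthesis, its uptake and its control by SREBP2 were followed through 28 genes in the livers of mice fed ethanol with or without a plant polyphenol. The genes were listed by their function, from the first step of the sterol pathway to the proteins that sense and move sterol, and each was read by the probe set that named it alone and had its highest mean over all arrays. Of the 28 genes, 26 had such a probe set, out of 18193 genes on the arrays, and 55 probe sets in all named 1 of them alone. The exceptions were Acat2, the cytosolic thiolase at the start of the pathway, and Soat2, which esterifies cholesterol in hepatocytes. The question put to these genes was whether ellagic acid (EA), a polyphenol that comes from wood tannins, and trans-resveratrol (RSV), a stilbene of grape skin, left the pathway at the same level when given with the same ethanol diet.

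The 28 arrays each held liver RNA of 1 female C3H/HeN mouse. The mice were 5 weeks old at the start, were acclimated for 1 week, took a Lieber liquid diet freely for 1 week and then received 12 g of it per day for 4 weeks. All diets were isocaloric, with more maltose and dextrin in the control diet than in the diets with ethanol. Ethanol and this carbohydrate difference cannot be told apart in comparisons with control. The control diet held water in place of ethanol, the EtOH diet held ethanol, and the EtOH+EA and EtOH+RSV diets held ethanol with ellagic acid or trans-resveratrol at an intake of about 50 mg per kg body weight per day. Each diet was given to 4 wild-type mice (16 arrays; the EtOH mice are numbered 1, 3, 4 and 5) and to 3 mice lacking the constitutive androstane receptor CAR (12 arrays), a nuclear receptor of hepatocytes that responds to drugs and other foreign compounds. How the CAR deletion was made is not given in the sources used here. No diet held a polyphenol without ethanol, so each polyphenol was seen only on top of ethanol.

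The values are log2 levels that the authors obtained by distribution free weighted (DFW) summarisation, a method that shrinks probe sets with little contrast between arrays to nearly one value. Where the SD of a probe set across 1 genotype's arrays was 0.01 or less, it is termed compressed here, and its differences have no usable size. Compressed probe sets made up 85.3% of 45037 in wild-type and 79.3% of 45011 in CAR-deficient arrays. Of the 26 measured genes, 22 were uncompressed in wild-type arrays (the exceptions were Mvd, Srebf2, Mylip and Lpin3) and 24 in CAR-deficient arrays (the exceptions were Srebf2 and Lpin3). The same rescaling means that a difference of 1 is not a calibrated 2-fold change. Because the values of the 2 genotypes had different scales, levels are set side by side only within a genotype. Ttr averaged 14.24 in wild-type and 14.99 in CAR-deficient arrays, and Hmgcs1 10.91 and 11.51. Alb, at 14.55 and 27.23, stood apart from the other hepatocyte markers in the size of this gap. Differences were tested with limma over all probe sets of a genotype, and a gene is called where its Benjamini-Hochberg adjusted p was under 0.05.

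Hepatocytes build cholesterol from acetyl-CoA through mevalonate, farnesyl diphosphate, squalene and lanosterol. The genes of nearly every step are switched on together by SREBP2 (gene Srebf2), a transcription factor held in the endoplasmic reticulum membrane. When sterol is scarce its escort SCAP carries it to the Golgi, where proteases free the active part; when sterol is plentiful, INSIG1 and INSIG2 hold SCAP back. INSIG1 is itself an SREBP target, while INSIG2 in liver has a transcript that falls with insulin. NPC1 moves cholesterol out of lysosomes, STARD4 carries it between membranes, MYLIP marks lipoprotein receptors for degradation, and LPIN3 is a phosphatidate phosphatase.

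Promoter windows of 4 of the genes are shown because the enzymes of the pathway are known to share control elements there and because the 4 genes span the start, the mevalonate steps, the late steps and the sensors of the pathway. Each runs from 250 bases before to 50 bases after a RefSeq transcript start (GRCm38.p6), 5′ to 3′ on the gene's strand. The capitals mark CCAAT boxes (CCAAT, or ATTGG on the other strand), the sterol regulatory element core CACCCCAC and the E-box CACGTG. The windows are Hmgcs1, chr13:119690101-119690400, plus strand; Mvk, chr5:114444019-114444318, plus strand; Hsd17b7, chr1:169969156-169969455, minus strand; and the farthest upstream of the listed Insig2 starts, chr1:121332540-121332839, minus strand.
Hmgcs1: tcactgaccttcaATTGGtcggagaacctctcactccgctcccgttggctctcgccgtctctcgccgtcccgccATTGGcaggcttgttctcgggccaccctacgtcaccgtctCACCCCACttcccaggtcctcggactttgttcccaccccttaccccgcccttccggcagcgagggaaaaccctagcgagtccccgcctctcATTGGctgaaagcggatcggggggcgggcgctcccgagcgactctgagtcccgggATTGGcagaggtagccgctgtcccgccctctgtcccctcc
Mvk: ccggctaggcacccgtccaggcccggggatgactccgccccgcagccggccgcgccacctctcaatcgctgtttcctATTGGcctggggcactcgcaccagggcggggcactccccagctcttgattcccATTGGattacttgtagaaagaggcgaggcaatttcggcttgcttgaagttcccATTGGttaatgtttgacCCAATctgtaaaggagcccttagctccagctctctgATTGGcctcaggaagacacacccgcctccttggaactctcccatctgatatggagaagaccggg
Hsd17b7: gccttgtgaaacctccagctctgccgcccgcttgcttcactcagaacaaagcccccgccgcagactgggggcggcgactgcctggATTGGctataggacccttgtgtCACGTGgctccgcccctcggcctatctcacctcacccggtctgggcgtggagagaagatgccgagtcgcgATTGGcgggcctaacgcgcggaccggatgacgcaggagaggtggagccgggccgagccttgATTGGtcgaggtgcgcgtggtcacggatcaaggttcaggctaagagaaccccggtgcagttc
Insig2: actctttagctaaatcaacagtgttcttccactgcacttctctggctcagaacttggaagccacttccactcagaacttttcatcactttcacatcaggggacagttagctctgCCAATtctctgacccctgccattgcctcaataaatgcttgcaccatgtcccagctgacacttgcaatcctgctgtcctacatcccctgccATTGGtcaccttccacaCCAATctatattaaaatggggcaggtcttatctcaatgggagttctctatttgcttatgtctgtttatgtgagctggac
The Hmgcs1 window held the sterol regulatory core, starting at position -136 from the transcript start, and 4 CCAAT boxes. The Mvk window held 5 CCAAT boxes, the Hsd17b7 window 3 with 1 E-box, and the Insig2 window 3. The windows of the other listed Insig2 starts held none of the marked motifs. In the counts that follow, a gene with several windows counts if any of them held the motif. Searched on both strands, CCAAT was found for 18 of the 22 genes with a window (81.8%) against 41.1% of 27025 mouse genes. CACGTG was found for 6 of 22 (27.3%: Dhcr7, Hsd17b7, Insig1, Lpin3, Sc5d and Scap) against 8.09%, and CACCCCAC for Hmgcs1 and Acat2 (9.09%) against 3.3%. The motifs were counted apart, whether or not their letters overlapped, and a match describes the letters only. Fdft1, Fdps, Npc1, Soat2, Sqle and Stard4 had no entry.

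The tissue label fitted the arrays, in that the hepatocyte genes Alb and Ttr were at the top of all levels in both genotypes. All cholangiocyte and pancreatic acinar markers were compressed in wild-type arrays. The summed level of the 6 uncompressed of 8 Kupffer cell markers was 54.45 to 55.42 in wild-type control arrays, 52.65 to 53.81 with EtOH, 52.86 to 53.23 with EtOH+EA and 52.53 to 53.64 with EtOH+RSV. Of the 8, 7 were called lower than control with each ethanol diet, and these calls included a compressed marker. With EtOH, EtOH+EA and EtOH+RSV, calls against control took in 5.55%, 14.2% and 19.7% of all probe sets. Of uncompressed probe sets they took in 17.8%, 41.9% and 44.8%. In CAR-deficient arrays, where 7 of the 8 were uncompressed, the sum of those 7 was 65.78 to 67.48 with control and 63.11 to 65.39 over the 3 ethanol diets. Between EtOH+EA and EtOH+RSV in wild-type arrays, the sum of the 3 uncompressed of 7 hepatocyte markers was 31.05 to 31.63 against 32.02 to 33.60. That of the 4 uncompressed of 6 sinusoidal endothelium markers was 37.73 to 38.38 against 37.19 to 37.48, and neither sum overlapped. With EtOH alone the sums were 31.26 to 34.87, a range that met both polyphenol ranges, and 36.95 to 37.16. For EtOH+EA against EtOH+RSV, groups did not overlap for 9.62% of uncompressed probe sets. By limma 0 of the 7 hepatocyte and 0 of the 6 endothelium markers were called in this comparison, beside 0.0244% of all probe sets. Of 5 stellate cell markers (4 uncompressed), 3 were called higher than control with EtOH+EA and 3 with EtOH+RSV, beside the shares given above for these diets. With both diets the calls included Des, the compressed marker. Fewer cells of a type and less RNA of its marker genes per cell cannot be told apart in such samples. The part of these shifts in the differences below was not tested. Nr1i3, the CAR gene, read 8.96 to 10.10 over wild-type and 8.55 to 9.49 over CAR-deficient arrays. It was called higher with EtOH+EA than with EtOH in wild-type mice, by 0.64 (adjusted p = 0.045). Its probe set could not be placed inside or outside the deleted part, so these values check nothing about the genotype.

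Under EtOH+EA the mean levels of nearly the whole sterol pathway lay below those under EtOH+RSV in wild-type mice. After adjustment over all probe sets, limma called no single gene. Among the 22 uncompressed genes, 20 were lower with EtOH+EA, and among the 17 uncompressed synthesis enzymes 16 were lower, with a median difference of -0.45. The enzymes moved together from mouse to mouse, so counts of genes here and below are not counts of independent observations. Over all 6633 uncompressed probe sets the median difference was 0.011, and 44.9% were lower. By limma 0 of 26 genes were called, beside 0.0244% of all probe sets. An unadjusted p under 0.05 was reached by 6 of the 26 (Hmgcs1, Fdps, Hsd17b7, Sc5d, Insig1 and Npc1) and by 3954 of all probe sets. Groups that did not overlap were seen for 4 of the 22 (Mvk, Fdps and Insig1 lower, Npc1 higher), beside 9.62% of uncompressed probe sets. The rank product, the method the study names, called 17 of 26 (15 lower, 2 higher), beside 3.29% of all and 22.3% of uncompressed probe sets. It ranks differences between pairs of arrays and does not set a difference against the spread of that gene between mice.

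**Figure D1:**
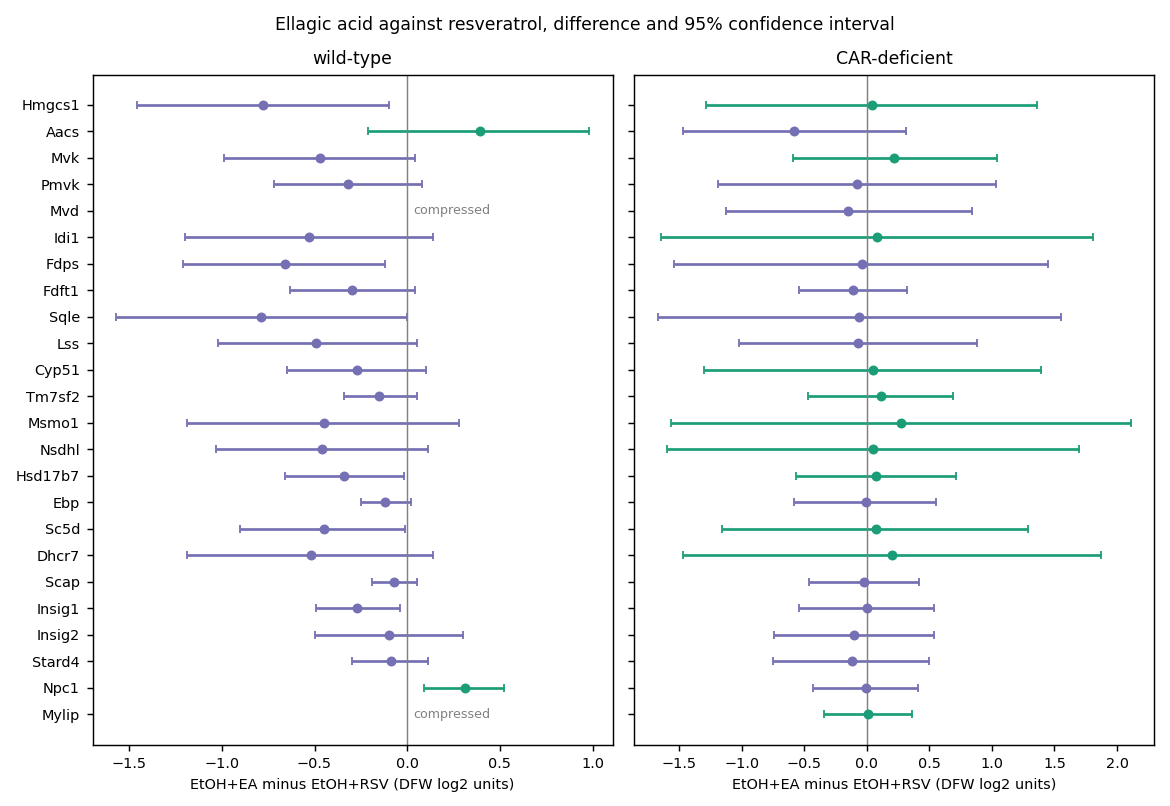
Difference of EtOH+EA from EtOH+RSV (log2 scale of the DFW values) for each uncompressed gene, wild-type on the left and CAR-deficient on the right. Points are differences of group means (4 or 3 mice per diet), bars their 95% confidence intervals from limma, green above 0 and purple below. In wild-type mice 20 of 22 points lie below 0, while in CAR-deficient mice they scatter on both sides with wider bars.

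At the entry to the pathway, Hmgcs1 makes HMG-CoA from acetyl-CoA units. Its levels were 10.43, 10.74, 10.34 and 10.41 in the EtOH+EA mice. In the EtOH+RSV mice they were 12.18, 11.12, 11.19 and 10.54. The EtOH+EA values lay close together, whereas RSV mouse 1 stood far above them and RSV mouse 4 inside their range. The difference was -0.78 (95% interval -1.46 to -0.10, limma adjusted p = 0.52). Aacs, which activates acetoacetate for lipid synthesis, was the only enzyme with a higher mean under EtOH+EA, by 0.39 (-0.21 to 0.98, adjusted p = 0.71). Its EtOH+EA values were 8.38, 8.30, 9.07 and 8.36, with mouse 3 well above the rest.

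The enzymes from mevalonate to farnesyl diphosphate were lower throughout, and 2 of them did not overlap. Mevalonate kinase, Mvk, read 7.62, 7.69, 7.66 and 7.67 with EtOH+EA. With EtOH+RSV it read 8.64, 8.08, 8.09 and 7.73. All 4 RSV mice were above all 4 EA mice, though RSV mouse 4 by only a little, and the difference was -0.47 (-0.99 to 0.04, adjusted p = 0.60). Farnesyl diphosphate synthase, Fdps, read 10.07, 10.51, 10.19 and 10.36 with EtOH+EA. It read 11.46, 10.91, 10.88 and 10.53 with EtOH+RSV. The groups again just failed to touch, and the difference was -0.66 (-1.21 to -0.12, adjusted p = 0.50). Idi1, the isopentenyl diphosphate isomerase, read 10.45, 10.63, 10.24 and 10.31 against 11.56, 10.93, 10.84 and 10.43. Here RSV mouse 4 fell among the EA mice, and the difference was -0.53 (-1.20 to 0.14, adjusted p = 0.65). Pmvk, the kinase after Mvk, differed by -0.32 (-0.72 to 0.08).

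The squalene steps held the largest difference. Squalene epoxidase, Sqle, a rate-limiting enzyme of the later pathway, read 8.39, 8.85, 8.60 and 8.33 with EtOH+EA. With EtOH+RSV it read 10.10, 9.32, 9.23 and 8.66. RSV mouse 1 was highest and RSV mouse 4 overlapped the EA mice. The difference was -0.79 (-1.57 to 0.00, adjusted p = 0.57). Lanosterol synthase, Lss, which closes the sterol rings, read 8.33, 8.47, 8.32 and 8.26 against 9.56, 8.84, 8.61 and 8.32. Its difference was -0.49 (-1.02 to 0.05, adjusted p = 0.61), and Fdft1, squalene synthase, differed by -0.30 (-0.63 to 0.04).

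From lanosterol to cholesterol all 8 enzymes were lower with EtOH+EA. Dhcr7, which carries out the last reduction to cholesterol, read 8.95, 9.02, 8.77 and 8.96 with EtOH+EA and 10.05, 9.47, 9.40 and 8.89 with EtOH+RSV, a difference of -0.52 (-1.19 to 0.14, adjusted p = 0.65). Nsdhl, a sterol dehydrogenase, read 9.47, 9.74, 9.41 and 9.48 against 10.54, 9.99, 9.88 and 9.55. Its difference was -0.46 (-1.03 to 0.11, adjusted p = 0.64), with RSV mouse 4 once more level with the EA mice. Msmo1, which removes methyl groups from sterols, read 10.16, 10.64, 10.67 and 10.41 against 11.65, 11.06, 10.86 and 10.13. Sc5d, the sterol desaturase, read 11.04, 11.20, 10.90 and 11.00 against 11.88, 11.45, 11.56 and 11.07. Both differed by -0.45, with intervals of -1.19 to 0.28 for Msmo1 and -0.90 to -0.01 for Sc5d and adjusted p of 0.73 and 0.57. The remaining enzymes of this stretch differed less, Hsd17b7 by -0.34, Cyp51 by -0.27, Tm7sf2 by -0.15 and Ebp by -0.12.

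The same RSV mouse was highest in nearly all of these enzymes, and the size of the difference moved with it. EtOH+RSV mouse 1 was the highest of its diet for 15 of 17 enzymes and mouse 4 the lowest for 16 of 17, although over all uncompressed probe sets mouse 1 was highest for 21.5% and mouse 4 lowest for 29.7%. Leaving out RSV mouse 1 brought the median of the enzymes from -0.45 to -0.24, and leaving out RSV mouse 4 took it to -0.61. Over the 8 arrays left out in turn the median stayed between -0.61 and -0.24 and limma called 0 genes each time.

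**Figure D2:**
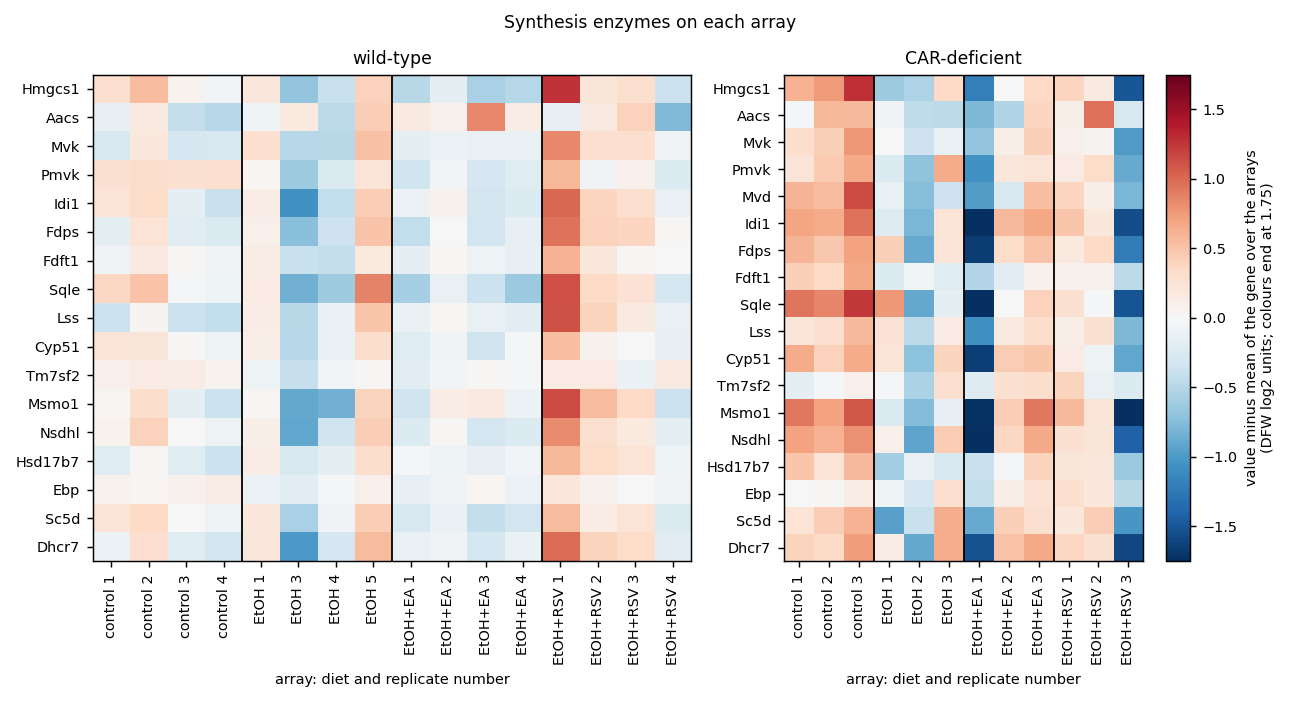
Heat map of each uncompressed synthesis enzyme in each array, as its value minus the mean of that gene over the arrays of the genotype (log2 scale). Columns are mice grouped by diet, and whole columns take 1 colour, among them wild-type EtOH+RSV mouse 1 and, at the low end, CAR-deficient EtOH+EA mouse 1 and EtOH+RSV mouse 3.

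Whole-pathway shifts of this kind between mice on 1 diet were seen in most groups. Wild-type EtOH mouse 5 was the highest of its diet for 17 of 17 enzymes and EtOH mouse 3 the lowest for 15, against 31.2% and 22.3% of all uncompressed probe sets. Wild-type control mouse 2 was the highest for 15. In CAR-deficient mice EtOH+EA mouse 1 was the lowest of its diet for 18 of 18 enzymes (38.1% of uncompressed probe sets) and EtOH+RSV mouse 3 also for 18 of 18 (41.8%). The median within-diet SD of the enzymes was 0.36 in wild-type mice, where that of all uncompressed probe sets was 0.11, and 0.64 against 0.18 in CAR-deficient mice. By diet, the median SD of the wild-type enzymes was 0.22 with control, 0.43 with EtOH, 0.13 with EtOH+EA and 0.39 with EtOH+RSV. In CAR-deficient mice it was 0.18, 0.47, 0.76 and 0.64 in the same order of diets. The order of mice was shared in part by 12 uncompressed genes of fatty acid synthesis and its regulator SREBP1: wild-type EtOH mouse 5 was highest for 10 of these, and in CAR-deficient mice EtOH+EA mouse 1 was lowest for 11 and EtOH+RSV mouse 3 for 12. Wild-type EtOH+RSV mouse 1 was highest for 6 of the 12, EtOH+RSV mouse 4 lowest for 8 and EtOH mouse 3 lowest for 6.

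Among the sterol sensors, EA and RSV were close to each other for Insig2 and both lay below the diets without polyphenol. Insig2 read 11.05, 10.67, 10.75 and 10.96 with control and 11.25, 10.71, 11.37 and 10.84 with EtOH. It read 10.54, 10.24, 9.78 and 10.32 with EtOH+EA and 10.43, 10.16, 10.10 and 10.58 with EtOH+RSV. No polyphenol mouse reached any control or EtOH mouse. Groups did not overlap against control for 56.2% of uncompressed probe sets with EtOH+EA and 48.7% with EtOH+RSV. The shares against the EtOH diet were 24.8% and 11.5%. Against EtOH, Insig2 fell by 0.82 with EtOH+EA (SE 0.18, adjusted p = 0.039), while the difference with EtOH+RSV was -0.73 (SE 0.18, adjusted p = 0.11). Against control it fell by 0.64 with EtOH+EA (adjusted p = 0.037), and the difference with EtOH+RSV was -0.54 (adjusted p = 0.057). The difference of EtOH+EA from EtOH+RSV was -0.10 (-0.50 to 0.30, adjusted p = 0.91), an interval that leaves room for a gap of either sign.

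Insig2 had a pair of further probe sets. With EtOH+EA against EtOH both were called lower (-0.77, adjusted p = 0.017, and -0.74, adjusted p = 0.015). Against control both differed by -0.55 with EtOH+EA (adjusted p = 0.024 and 0.017), and the latter was also called with EtOH+RSV (-0.44, adjusted p = 0.037). For the leading probe set, the call against EtOH was lost without EtOH mouse 1 or 4 or without EtOH+EA mouse 2, 3 or 4, with differences between -0.86 and -0.68. The call against control was lost without control mouse 1, 3 or 4 or EtOH+EA mouse 2, 3 or 4, with differences between -0.67 and -0.49.

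Npc1, with Aacs, was an exception to the lower levels under EtOH+EA, and it was called against both diets without polyphenol. It read 9.88, 10.02, 9.98 and 9.95 with EtOH+EA and 9.43, 9.81, 9.65 and 9.71 with EtOH+RSV, without overlap, a difference of 0.31 (0.09 to 0.52, adjusted p = 0.45). It read 9.33, 9.64, 9.48 and 9.17 with EtOH and 9.59, 9.76, 9.55 and 9.49 with control. The EtOH+EA mice lay above every other wild-type mouse. Groups with EtOH+EA did not overlap for 56.2% of uncompressed probe sets against control and 24.8% against EtOH. Npc1 rose with EtOH+EA by 0.55 against EtOH (SE 0.10, adjusted p = 0.015) and by 0.36 against control (SE 0.10, adjusted p = 0.03). The differences of EtOH+RSV were 0.24 (adjusted p = 0.28) and 0.05 (adjusted p = 0.73). The call against EtOH was lost without EtOH mouse 1 (0.53) or EtOH+EA mouse 3 (0.54), and that against control without control mouse 1, 3 or 4 or EtOH+EA mouse 2, 3 or 4 (0.32 to 0.36).

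**Figure D3:**
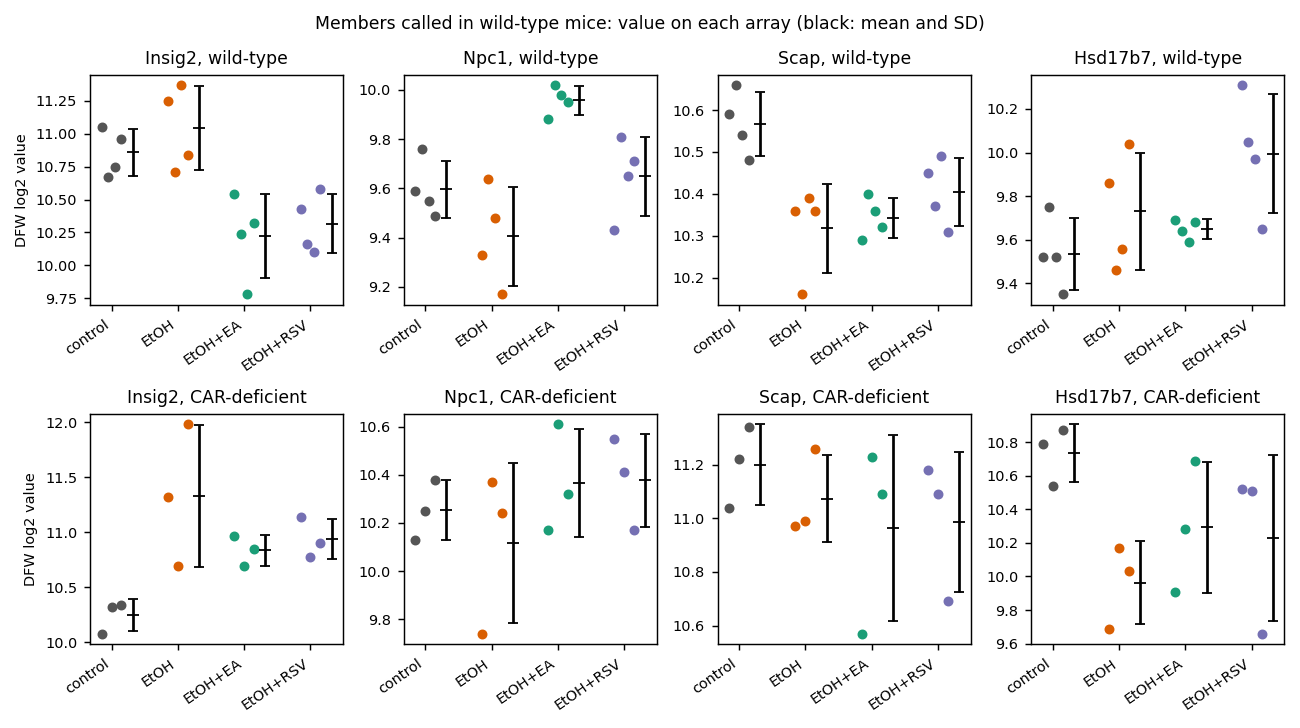
Levels of Insig2, Npc1, Scap and Hsd17b7 in each array (log2 DFW values), by diet and genotype, with mean and SD as bars; the genotypes have separate scales. In wild-type mice the EtOH+EA points of Npc1 lie above those of every other diet, and the Insig2 points of both polyphenol diets lie below those of control and EtOH.

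Scap, the escort of SREBP2, was lower than control with EtOH and with EtOH+EA. It read 10.59, 10.66, 10.54 and 10.48 with control. It read 10.36, 10.16, 10.39 and 10.36 with EtOH and 10.29, 10.40, 10.36 and 10.32 with EtOH+EA, all below the control mice. Groups did not overlap with control for 26.9% of uncompressed probe sets with EtOH and 56.2% with EtOH+EA. With EtOH+RSV it read 10.45, 10.37, 10.49 and 10.31, and mouse 3 just reached the lowest control mouse. Scap fell against control by 0.25 with EtOH (SE 0.05, adjusted p = 0.022) and by 0.22 with EtOH+EA (SE 0.05, adjusted p = 0.017), and the difference with EtOH+RSV was -0.16 (adjusted p = 0.06). EtOH+EA differed from EtOH+RSV by -0.07 (-0.19 to 0.05). The EtOH call was lost without control mouse 2 (-0.22), and the EtOH+EA call was kept without any single mouse.

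Insig1, the sterol sensor that is itself an SREBP target, read 10.92, 11.07, 11.27 and 11.01 with EtOH+EA and 11.33, 11.37, 11.30 and 11.35 with EtOH+RSV. The groups did not overlap, and the difference was -0.27 (-0.49 to -0.04, adjusted p = 0.51). Srebf2 itself was compressed in both genotypes: it was called higher with EtOH than with control by limma, but by 0.00043 (adjusted p = 0.043), a difference without usable size. Stard4 differed between the polyphenols by -0.09 (-0.30 to 0.11). Mylip and Lpin3 were compressed in wild-type arrays.

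In wild-type mice the enzyme medians with EtOH and EtOH+EA lay slightly below control and that with EtOH+RSV slightly above. The median difference from control was -0.14 with EtOH (13 of 17 lower), -0.14 with EtOH+EA (12 of 17 lower) and 0.18 with EtOH+RSV (14 of 17 higher). Against EtOH it was -0.07 with EtOH+EA (12 of 17 lower) and 0.38 with EtOH+RSV (16 of 17 higher). Of all uncompressed probe sets, 60.2% were lower with EtOH, 61% with EtOH+EA and 62.2% with EtOH+RSV than with control (medians -0.040, -0.068 and -0.077), and 57.4% with EtOH+EA and 61.8% with EtOH+RSV than with EtOH (medians -0.025 and -0.040). These comparisons share arrays, so their values are given side by side only. Each median moved with single mice. Without EtOH mouse 3 the EtOH median from control was 0.01, and without EtOH mouse 5 it was -0.27. Without control mouse 2 the EtOH+EA median from control was -0.06. Without RSV mouse 1 the EtOH+RSV medians were 0.05 from control and 0.19 from EtOH, and without RSV mouse 4 the median from control was 0.38. The EtOH+RSV median from control was also 0.12 without control mouse 4 and 0.27 without control mouse 2, and that from EtOH was 0.24 without EtOH mouse 4 and 0.22 without EtOH mouse 3. The EtOH+EA median from EtOH ran from -0.24 without EtOH mouse 3 to 0.09 without EtOH mouse 5.

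Few genes were called in these comparisons. With EtOH against control 2 of 26 passed (Scap and the compressed Srebf2), beside 5.55% of all probe sets. With EtOH+EA 2 passed against EtOH (Insig2 and Npc1, beside 2.37% of all and 9.92% of uncompressed probe sets) and 3 against control (Scap, Insig2 and Npc1, beside 14.2%). With EtOH+RSV 0 passed against EtOH by limma (beside 0.364% of all and 1.64% of uncompressed probe sets; 6 at an unadjusted p under 0.05, beside 6638 of all probe sets) and 1 against control (Hsd17b7, beside 19.7%). The rank product called 8 with EtOH against control (2 higher, 6 lower, beside 5.54%), 7 with EtOH+EA against EtOH (2 higher, 5 lower, beside 5.58%) and 15 with EtOH+RSV against EtOH (14 higher, 1 lower, beside 4.31%). Against control it called 11 with EtOH+EA (2 higher, 9 lower, beside 8.49%) and 9 with EtOH+RSV (8 higher, 1 lower, beside 7.98%). All its calls fell among uncompressed probe sets, of which it called 37.6%, 37.9%, 29.3%, 57.6% and 54.2% in the same order. Of the 22 uncompressed genes 1, 3 and 1 were called against control with EtOH, EtOH+EA and EtOH+RSV, beside 17.8%, 41.9% and 44.8% of uncompressed probe sets. Hsd17b7, a sterol ketoreductase of the late pathway, read 9.52, 9.75, 9.52 and 9.35 with control and 10.31, 10.05, 9.97 and 9.65 with EtOH+RSV. RSV mouse 4 overlapped the control mice. The rise was 0.46 (SE 0.15, adjusted p = 0.045), and the call was lost without control mouse 1, 3 or 4 or RSV mouse 1, 2 or 3, with differences between 0.35 and 0.47. The other uncompressed probe sets of Hsd17b7 differed by 0.29 (limma adjusted p = 0.2) and 0.28 (adjusted p = 0.12) and were not called.

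**Figure D4:**
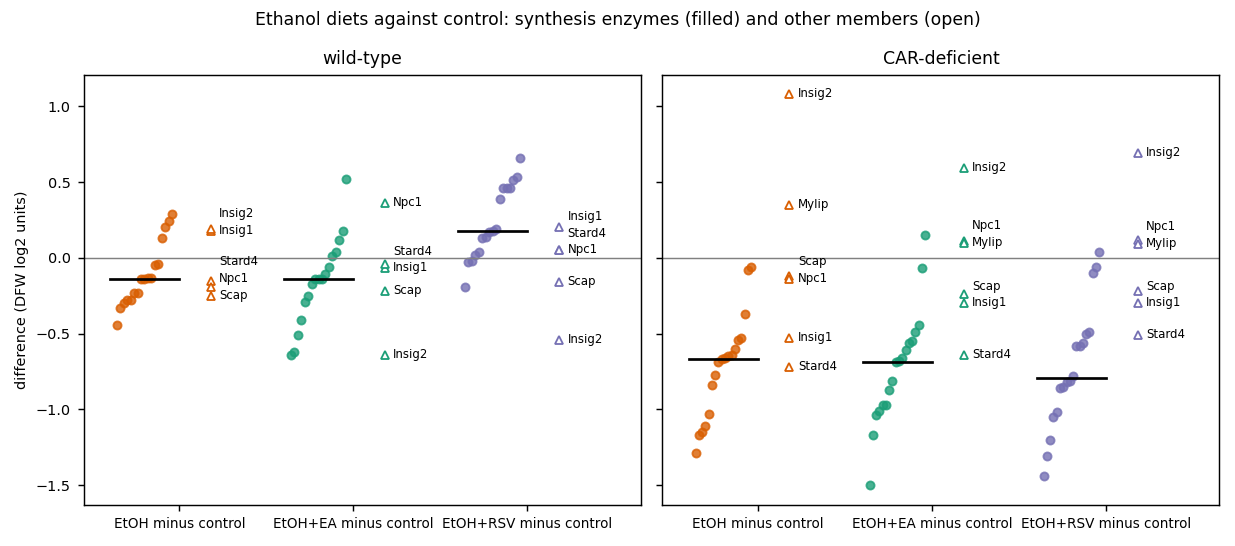
Difference from the control diet (log2 scale of the DFW values) for the 3 ethanol diets in both genotypes. Filled points are synthesis enzymes with their median as a black bar, and open triangles are the named sensors and carriers. The wild-type medians run from -0.14 to 0.18, and the CAR-deficient medians from -0.67 to -0.79.

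Other probe sets of the enzymes added calls against control in wild-type mice with EtOH+EA that the leading ones did not give. Of the 55 probe sets, 11 were called (2 higher, 9 lower), beside 14.2% of all and 41.9% of uncompressed probe sets, and 3 of the 11 (of Aacs, Sc5d and Scap) were compressed. A further probe set of Sc5d differed by -0.93 (SE 0.22, adjusted p = 0.016), where the leading Sc5d probe set differed by -0.41 (adjusted p = 0.21). Another of Cyp51, the lanosterol demethylase, differed by -0.67 (adjusted p = 0.05 after rounding, called) against -0.25 for the leading one. Another of Stard4 differed by -0.39 (adjusted p = 0.018) against -0.04.

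In CAR-deficient mice the means of the enzymes lay below control with every ethanol diet, and the EtOH+EA and EtOH+RSV means lay near each other, with no gene called. The median of 18 uncompressed enzymes differed from control by -0.67 with EtOH (18 of 18 lower), -0.68 with EtOH+EA (17 of 18 lower) and -0.79 with EtOH+RSV (17 of 18 lower). The medians over all uncompressed probe sets were 0.020, -0.008 and 0.004. EtOH+EA differed from EtOH+RSV by a median of 0.04 (10 higher, 8 lower), and from EtOH by -0.01, as EtOH+RSV did by -0.03. With 3 mice per diet, intervals were wide: for Hmgcs1 the EtOH+EA difference from EtOH+RSV was 0.04 (-1.29 to 1.36) and for Sqle -0.06 (-1.67 to 1.55).

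Hmgcs1 read 12.12, 12.25 and 12.79 in the CAR-deficient control mice. It read 10.89, 10.96 and 11.85 with EtOH, 10.31, 11.50 and 11.85 with EtOH+EA and 11.88, 11.66 and 10.01 with EtOH+RSV. Every ethanol-fed mouse was below every control mouse, with differences of -1.15, -1.17 and -1.20 (SE 0.58 each, adjusted p = 0.47, 0.50 and 0.53). Fdft1 had the smallest spread of the enzymes, reading 12.13, 12.06 and 12.38 with control and 11.47, 11.66 and 11.50 with EtOH. Its difference was -0.64 (SE 0.19, -1.07 to -0.21, adjusted p = 0.22). Mvd, the decarboxylase of the mevalonate steps, which was compressed in wild-type arrays, read 8.47, 8.41 and 9.02 with control and 7.74, 7.13 and 7.51 with EtOH, a difference of -1.17 (-2.15 to -0.19, adjusted p = 0.32).

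Insig2 lay the other way. It read 10.08, 10.32 and 10.34 in CAR-deficient control mice and 11.32, 10.69 and 11.98 with EtOH. With EtOH+EA it read 10.97, 10.69 and 10.85 and with EtOH+RSV 11.14, 10.78 and 10.90. Every ethanol-fed mouse was above every control mouse, and the differences were 1.08 (SE 0.28, adjusted p = 0.18), 0.59 (adjusted p = 0.47) and 0.69 (adjusted p = 0.44). With EtOH, Insig1 differed from control by -0.53 (-1.07 to 0.01) and Stard4 by -0.72 (-1.35 to -0.09), neither called.

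By limma 0 of 26 genes were called in CAR-deficient mice in any of the 6 comparisons. Against control these stood beside 0.344% of probe sets for EtOH, 0.18% for EtOH+EA and 0.06% for EtOH+RSV, and in the other 3 comparisons beside 0%. An unadjusted p under 0.05 was reached by 5, 3 and 2 genes against control, beside 5563, 5268 and 4646 of all probe sets, and by 0 in the other 3 comparisons. The rank product called 15, 13 and 13 against control, beside 1.87%, 2.98% and 2.17% of all and 9.03%, 14.4% and 10.5% of uncompressed probe sets, and 0 in the others, beside 0.58% for EtOH+EA and 0.151% for EtOH+RSV against EtOH and 0.0955% for EtOH+EA against EtOH+RSV. The groups did not overlap for 16 of 24 uncompressed genes with EtOH, 6 with EtOH+EA and 13 with EtOH+RSV, beside 27.2%, 36.4% and 28.2% of uncompressed probe sets. The medians with the polyphenols moved most with 1 mouse each: without EtOH+EA mouse 1 the EtOH+EA median from control was -0.21, and without EtOH+RSV mouse 3 the EtOH+RSV median was -0.36. Without those mice the EtOH+EA and EtOH+RSV medians from EtOH were 0.47 and 0.35, and the median of EtOH+EA from EtOH+RSV was 0.49 and -0.44.

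Whether a diet acted differently in the 2 genotypes was tested as the difference of the differences. By limma 0 of 26 genes were called for EtOH against control (2.22% of probe sets), for EtOH+EA (0.158%) and EtOH+RSV (0%) against EtOH and for EtOH+EA against EtOH+RSV (0.00444%). An unadjusted p under 0.05 was reached by 7 genes for EtOH against control (Mvd, Hsd17b7, Srebf2, Insig1, Insig2, Stard4 and Mylip), beside 7194 of all probe sets, and by 0 for the other comparisons. Insig2 differed from control by 0.19 in wild-type and by 1.08 in CAR-deficient mice, a difference of -0.90 (SE 0.32, adjusted p = 0.16). Without wild-type control mouse 2, 1 gene was called (Srebf2, compressed), and without CAR-deficient EtOH mouse 2, 2 genes were (Srebf2 and Insig2). Because the values of the 2 genotypes had different scales, the size of such a difference is not on 1 scale.

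Other genes were listed around the pathway. Of 41 (36 measured: isoprenoid branches, sensors and proteases, sterol transport and efflux, and fatty acid synthesis), 4 were called with EtOH against control in wild-type mice (3 higher, 1 lower), 10 with EtOH+EA (3 higher, 7 lower) and 11 with EtOH+RSV (3 higher, 8 lower), beside 5.55%, 14.2% and 19.7% of all and 17.8%, 41.9% and 44.8% of uncompressed probe sets. Of the 36 genes 23 were uncompressed, and Mbtps2, Erlin2, Faf2, Nr1h3 and Pnpla3 were compressed where called. Abcg8, part of the sterol pump into bile, rose by 0.46, 0.48 and 0.44 with EtOH, EtOH+EA and EtOH+RSV (adjusted p = 0.023, 0.0077 and 0.01). Pgrmc1, a heme-binding partner of sterol enzymes, rose in the same order of diets by 0.17, 0.16 and 0.16, and Rnf139, a ubiquitin ligase of the sterol response, by 0.17, 0.27 and 0.16. Erlin1, a sterol-sensitive membrane protein of the endoplasmic reticulum, fell with EtOH+EA by 0.47 (adjusted p = 0.0085) and with EtOH+RSV by 0.44 (adjusted p = 0.01). Lipa, the lysosomal cholesteryl ester lipase, fell with these by 0.12 and 0.16. With EtOH+EA against EtOH, Nceh1, a neutral cholesterol ester hydrolase, rose by 0.45 (adjusted p = 0.048) and Osbp, an oxysterol-binding protein, fell by 0.10 (adjusted p = 0.015). Between EtOH+EA and EtOH+RSV 0 of 36 were called by limma (6 at an unadjusted p under 0.05). In CAR-deficient mice limma called 0 in every comparison, with 5 at an unadjusted p under 0.05 with each ethanol diet against control and 0 in the others.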

How the data were processed

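Liver RNA of 28 mice was hybridised to Affymetrix GeneChip Mouse Genome arrays, 1 mouse per array. The authors summarised probe signals by DFW in R and deposited log2 values, which were used as given. Whether the genotypes were summarised together is not given in the sources used here, and their scales differed. The 64 control probe sets, and 26 blank in CAR-deficient arrays, were left out. Genes were named from the platform annotation. Each genotype was fitted in limma 3.58.1 (R 4.3.3; lmFit and eBayes, 4 diets in 1 fit, no block), with Benjamini-Hochberg adjustment over all probe sets. Differences between genotypes used 1 fit of all arrays. The number of arrays limits the precision, and p-values set a difference against the spread between mice. Each fit used 1 pooled spread per probe set for all its diets. The median SD of the wild-type enzymes nevertheless ran from 0.13 with EtOH+EA to 0.43 with EtOH. On simulated data for EtOH+EA against EtOH+RSV, changes were added to uncompressed probe sets drawn at random. The fit recovered 66 of 100 changes of 0.5 and 90 of 100 of 1 in wild-type arrays, and 14 and 46 in CAR-deficient arrays. It also called 11 and 4 probe sets without a change. The median within-diet SD was 0.11 and 0.18 for uncompressed probe sets but 0.36 and 0.64 for the synthesis enzymes. These recoveries therefore cannot be read as those of the enzymes, which were not simulated apart.

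The genes and lists were chosen with earlier results of these data known. Named in full were called genes and the 10 largest wild-type differences between EtOH+EA and EtOH+RSV, and genes named beyond these were chosen after their values were seen. Same-numbered mice deviated together in every pair for wild-type EtOH+EA and control and for CAR-deficient EtOH and control. The correlations of their deviations from group means were 0.157 to 0.568 and 0.288 to 0.41. For wild-type EtOH+RSV and EtOH they were also positive, at 0.0767, 0.0207 and 0.376. No other comparison had positive correlations in every pair. The labels do not say what a number marks. Alternatives changed the normalization, moderation, filter, probe set, block, groups fitted and method (rank product, 50 permutations), and left out each array. Certain genes are not reported here.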

Additional observations from a re-analysis of the deposited data

Results flagged for a closer look

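In 7 of 88 groups of 4 wild-type arrays, 1 array stood apart from the other 3 by a gap above Dixon's critical share of the group's range, where chance gives about 1 in 20. Wild-type control mouse 2 was apart and high for Mvk (7.98, nearest other array 7.51), Fdps (10.75, nearest 10.34) and Lss (8.50, nearest 8.08). Wild-type EtOH mouse 3 was apart and low for Scap (10.16, nearest 10.36) and Stard4 (9.66, nearest 10.02). Aacs was apart and high in EtOH+EA mouse 3 (9.07, nearest 8.38), and Tm7sf2 apart and low in EtOH+RSV mouse 3 (11.10, nearest 11.36).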

How the results depend on the processing

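No called difference changed sign under the alternatives run, and Scap with EtOH+EA against control stayed called in all 17 of its alternatives. The rank product called the most genes: 8, 7, 15, 11, 9 and 17 in wild-type mice (EtOH against control, EtOH+EA and EtOH+RSV against EtOH, EtOH+EA and EtOH+RSV against control, EtOH+EA against EtOH+RSV) and 15, 13 and 13 for the 3 ethanol diets against control in CAR-deficient mice. With quantile normalization 1 gene was called for EtOH+RSV against EtOH, 6 each for EtOH+EA and EtOH+RSV against control, and 5 for the genotype difference with EtOH against control; values scaled by the residual SD gave 1. Quantile normalization also raised all calls for EtOH+EA against control from 6398 to 24188 probe sets and called 24999 for EtOH+RSV against control and 10411 (23.1%) for the genotype difference with EtOH. With uncompressed probe sets alone the counts were 1 for EtOH and 4 each for EtOH+EA and EtOH+RSV against control (beside 1769, 3427 and 3506 probe sets). They were 1 for EtOH+RSV against EtOH (Insig2). Fits of only the 2 groups called 0 for EtOH and EtOH+RSV against control and 0 for EtOH+EA against EtOH. For EtOH+EA against control they called 4 (Hmgcs1, Pmvk, Scap and Npc1), beside 6521 of all probe sets. For EtOH+RSV against control 0 genes were called without moderation and 3 above the median level. A least difference of 0.1 left 1 for EtOH against control, and the probe set of largest SD gave 6 for EtOH+EA against control. With the replicate number as a block 0 genes were called for EtOH and 2 for EtOH+RSV against control, and 1 for EtOH+RSV against EtOH; these mice share only a number. For wild-type EtOH+EA and CAR-deficient EtOH against control, the block changed no gene's call. Calls over all probe sets went from 155 to 12 for CAR-deficient EtOH against control. Leaving out 1 array gave 1 to 2 genes for EtOH against control, 0 to 2 for EtOH+EA against EtOH, 1 to 4 and 0 to 3 for EtOH+EA and EtOH+RSV against control, 0 to 2 for the genotype difference with EtOH and 0 elsewhere. Leaving out the 2 lowest CAR-deficient arrays together, chosen after seeing the data, called 0 genes. Where a result moved, the cause was not tested. With 3 mice per diet in CAR-deficient and 4 in wild-type mice, the intervals given are wide, and true differences anywhere inside them remain possible. The intervals are not adjusted for the number of probe sets, whereas the calls are. Levels of compressed probe sets bear no reading.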
